A study of Homo sapiens with 10 samples.

Results

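Peaks on the unplaced and unlocalized contigs of the human genome were described in the unmasked peak lists of a ChIP-seq series on CTCF and histone marks. A peak belonged to the set when the name of its sequence in build hg38 started with chrUn_ or ended with _random. The set held 3715 of the 332957 peaks in 10 lists. The series was made in HEK-293T, an established human embryonic kidney cell line, and asked how the level of the protein CGGBP1 bears on CTCF occupancy and on chromatin marks. Control cells (CT) carried a non-targeting shRNA, knockdown cells (KD) an shRNA that silences CGGBP1, and overexpressing cells (OE) a lentivirus that overexpresses CGGBP1. CT and KD cells were selected with 10 µg/ml puromycin, whereas the labels give no selection for OE. CTCF was measured in CT, KD and OE, and H3K4me3, H3K9me3 and H3K27me3 in CT and KD. The input library was 1 sample of DNA without pull-down, and the transduced cells it came from are not named. Each group had 1 library, so no difference between conditions was set against a spread between replicates and no p-values are given. The lists hold positions only. The number of reads behind a peak is unknown, and intervals given here are exact 95% intervals of counts of peaks, which cover counting error only.

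Unplaced and unlocalized contigs are pieces of sequence that belong to the assembly without a known position, and many of them hold DNA that is hard to assemble because it is repeated, such as satellites of the centromeres and the tandem genes for ribosomal RNA. CTCF binds DNA through zinc fingers and is known for insulation and for anchoring chromatin loops, while of the histone marks H3K4me3 is found at promoters in use, H3K27me3 where Polycomb keeps genes silent and H3K9me3 on repeats that are shut down. Copies of a repeat can be so alike that a short read from one matches another equally well.

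The following sequences of hg38 show what kinds of DNA the CTCF peaks covered. On each of 3 contigs the widest CT peak also found in KD and OE is shown, up to 300 bases of it around its best CTCF site or its centre. They stand for the contig with the most peaks, a contig with ribosomal RNA genes and a contig with a tandem period of 680 bp and 369 CENP-B boxes. Capitals mark sites of a CTCF matrix in the chr14 contig and in the rRNA contig, and the CENP-B box, a motif of centromeric alpha satellite that the centromere protein CENP-B binds, in the chr2 contig.
chr14_GL000225v1_random:33248-33547 (plus strand, CT, KD and OE): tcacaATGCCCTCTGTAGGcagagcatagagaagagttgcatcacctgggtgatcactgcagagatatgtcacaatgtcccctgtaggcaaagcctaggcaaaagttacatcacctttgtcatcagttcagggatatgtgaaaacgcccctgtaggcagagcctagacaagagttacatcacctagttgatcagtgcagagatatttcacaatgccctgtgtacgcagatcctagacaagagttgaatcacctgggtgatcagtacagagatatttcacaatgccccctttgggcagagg
chrUn_GL000220v1:153498-153797 (plus strand, CT, KD and OE): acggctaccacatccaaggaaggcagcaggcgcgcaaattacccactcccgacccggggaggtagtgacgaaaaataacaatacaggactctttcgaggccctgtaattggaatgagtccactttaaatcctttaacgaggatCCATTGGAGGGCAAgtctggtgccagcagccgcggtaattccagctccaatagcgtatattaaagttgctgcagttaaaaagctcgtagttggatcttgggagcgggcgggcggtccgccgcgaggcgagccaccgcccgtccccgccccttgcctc
chr2_KI270715v1_random:2446-2702 (plus strand, CT, KD and OE): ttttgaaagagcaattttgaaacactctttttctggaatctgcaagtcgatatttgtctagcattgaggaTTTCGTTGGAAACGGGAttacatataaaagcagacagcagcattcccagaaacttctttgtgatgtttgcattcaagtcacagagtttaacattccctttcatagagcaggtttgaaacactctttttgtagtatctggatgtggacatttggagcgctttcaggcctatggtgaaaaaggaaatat
The chr14 peak was 556 bp wide in CT and was overlapped in all 10 lists. The rRNA peak lay inside an 18S gene, spanned 1625 bp in CT and was also found in all 10 lists. Each 80-mer in the printed 300 bases of it occurred between 7 and 8 times in hg38. The chr2 peak of 257 bp was in 8 lists and had no input peak.

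The widest CTCF peak found in 1 condition only is also shown for the chr2 contig, as a single case that does not stand for such peaks in general. It has no capitals, since it held neither a CTCF matrix site nor a CENP-B box.
chr2_KI270715v1_random:36788-37087 (plus strand, CT only): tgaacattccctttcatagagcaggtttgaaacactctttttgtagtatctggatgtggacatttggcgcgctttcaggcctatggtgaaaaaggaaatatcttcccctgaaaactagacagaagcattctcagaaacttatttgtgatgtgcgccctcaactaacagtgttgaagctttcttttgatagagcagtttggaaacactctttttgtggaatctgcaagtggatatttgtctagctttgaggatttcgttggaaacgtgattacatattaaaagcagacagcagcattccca
This CT peak of 400 bp was in no other list. On the chr14 contig the widest peak of this kind was an OE peak of 428 bp that peaks of 5 histone lists and of the input also overlapped.

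By the labels, the CTCF lists of control and knockdown cells were called at a p threshold of 0.0025, the OE list at a looser 0.005 and all remaining lists at 0.001. The methods instead name a single threshold for all unmasked lists, equal to that of the OE label, and which of these made the lists is not settled here. Ratios on chromosomes 1 to 22, X and Y (called chromosomes below) stand beside those on the contigs. The cell line was checked by H3K4me3 peaks within 1 kb of a gene start. All 5 genes chosen as marks of HEK-293T (VIM, KRT8, KRT18, PAX2 and LHX1) had such a peak in CT and in KD. None of the 4 genes of other cell types (PTPRC, CD3E, ALB and CDH5) had one.

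The contigs were denser in peaks than the chromosomes in every list. There were 169 contigs with 11.5 Mb in all, or 0.370% of the length of contigs and chromosomes together. CTCF had 368 contig peaks in CT (32.1 per Mb against 13.5 per Mb on chromosomes), 407 in KD (35.5 against 14.9) and 583 in OE (50.9 against 14.9). The density on contigs was 2.37 times that on chromosomes in CT (interval 2.13 to 2.63), 2.38 times in KD (2.15 to 2.62) and 3.41 times in OE (3.14 to 3.71). H3K4me3 stood nearest to the chromosomes, with 439 contig peaks in CT and 506 in KD, at 1.60 and 1.73 times the chromosomal density. H3K9me3 had 258 and 256 contig peaks at 4.91 and 8.60 times, and H3K27me3 had 360 and 324 at 17.4 and 19.7 times. The input list, in which no protein was pulled down, stood farthest from the chromosomes, with 214 contig peaks (18.7 per Mb) at 23.8 times the chromosomal density (20.6 to 27.3).

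Covered bases gave the same order of lists. CTCF peaks covered 1.23% of contig bases in CT, 1.41% in KD and 2.04% in OE, at 2.97, 3.07 and 4.66 times the share on chromosomes. H3K4me3 peaks covered 1.96% in CT and 2.08% in KD, only 1.17 and 1.21 times the chromosomal share. On chromosomes the median H3K4me3 peak was 547 bp wide in CT and 522 bp in KD, and on contigs 362 bp and 326.5 bp. H3K9me3 peaks covered 0.660% and 0.709%, H3K27me3 peaks 1.09% and 0.961%, and input peaks 0.849%, which was 36.5 times the chromosomal share.

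**Figure D1:**
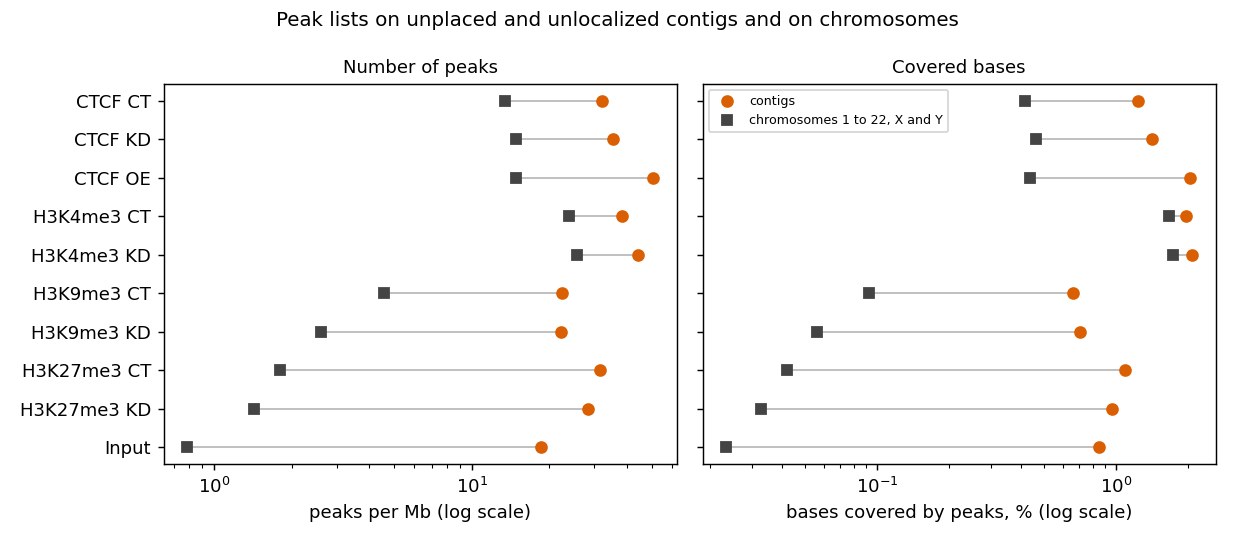
Peaks per Mb (left) and percent of bases covered by peaks (right) for each of the 10 lists, on log scales, with orange circles for contigs and dark grey squares for chromosomes 1 to 22, X and Y. The gap is smallest for H3K4me3 and largest for the input, with 23.8 times as many peaks per Mb on the contigs.

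Contig peaks overlapped input peaks more often than chromosomal peaks did, in each list. Of CTCF contig peaks, 37.8% in CT (32.8% to 42.9%), 40.5% in KD (35.7% to 45.5%) and 32.9% in OE (29.1% to 36.9%) overlapped an input peak. On chromosomes the shares were 4.05%, 4.2% and 4.70%. Of H3K9me3 contig peaks 57.4% in CT and 62.9% in KD did so (12.6% and 22.6% on chromosomes), and of H3K27me3 contig peaks 54.2% and 56.8% (36.2% and 41.9%). For H3K4me3 it was 41.2% and 36.6%, against 2.69% and 2.45%. The part that unbound DNA had in any contig peak was not tested.

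A few contigs held a large part of the peaks. chr14_GL000225v1_random, an unlocalized contig of 211173 bp, ranked highest in all 10 lists, with 41 (CT), 42 (KD) and 58 (OE) CTCF peaks. Its sequence matched itself best at a shift of 68 bp, where 36.3% of bases were identical. It held 35 input peaks, 16.4% of all input peaks on contigs, and 61 H3K27me3 peaks in CT and in KD. The 5 contigs with the most peaks together held 28.3% of CTCF contig peaks in CT (on 6.95% of contig length), 28.7% in KD (on 6.95%) and 27.1% in OE (on 9.78%). For H3K27me3 the 5 richest contigs held 41.9% in CT and 44.1% in KD. Both contigs with 18S and 28S ribosomal RNA genes, chrUn_GL000220v1 and chr22_KI270733v1_random, were each among the 5 richest in 9 of the 10 lists. chrUn_GL000216v2, rich in GGAAT, was so in all 10, and chr1_KI270709v1_random in 7. Of the 169 contigs, 34 had no peak in any list and 55 had a peak in every list. The 79 contigs under 5 kb, 0.155 Mb in all, carried CTCF peaks at 336 per Mb in CT, 348 per Mb in KD and 445 per Mb in OE.

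The comparison of KD with CT asked whether less CGGBP1 goes with a different number of CTCF peaks on the contigs. The number per Mb was 1.11 times that in CT (interval 0.958 to 1.28), next to 1.10 times on chromosomes (1.09 to 1.12). Covered bases stood at 1.15 times on contigs and 1.11 times on chromosomes. The interval on contigs includes 1. It covers counting error only and takes both counts as independent, although 241 of 368 CT peaks overlapped a KD peak. With 1 library per condition, whether KD differed from CT was not tested. For 7 contigs with at least 10 CTCF peaks in CT or KD, 3 had more peaks in KD than in CT. chrUn_GL000220v1 went from 13 peaks in CT to 24 in KD (1.85 times, 0.903 to 3.95), chr22_KI270733v1_random from 20 to 23 and chr14_GL000225v1_random from 41 to 42. At the other end, chr2_KI270715v1_random had 12 in CT and 4 in KD (0.333 times, 0.0784 to 1.10). chrUn_GL000226v1, with a tandem period of 1364 bp and 44 CENP-B boxes, had 10 and 8, and chrUn_GL000216v2 had 17 and 15.

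OE against CT asked the same for more CGGBP1. Contigs had 1.58 times as many CTCF peaks per Mb in OE as in CT (1.39 to 1.81), while chromosomes had 1.10 times as many (1.09 to 1.12). Covered bases stood at 1.65 times on contigs and 1.05 times on chromosomes. Against KD, OE had 1.43 times as many contig peaks (1.26 to 1.63) and 0.998 times as many chromosomal ones (0.985 to 1.01). The OE list, with a looser threshold by the labels and the same one by the methods, was nearly as large as the KD list on the chromosomes and larger on the contigs. When the same number of widest peaks, 42978, was taken from every CTCF list, 537 OE peaks and 368 CT peaks were left on the contigs, a ratio of 1.46. Without peaks that overlap the input the ratio was 1.71, from 391 and 229 peaks.

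Of the 7 contigs with at least 10 CTCF peaks in CT, 5 had more peaks in OE. Among them chrUn_GL000220v1 had the highest ratio, with 13 peaks in CT and 31 in OE (2.38 times, 1.21 to 4.97), and the lowest were chrUn_GL000226v1 with 10 and 7 (0.7 times, 0.226 to 2.04), chr2_KI270715v1_random with 12 and 9 (0.75 times, 0.279 to 1.94) and chrUn_GL000216v2 with 17 and 20 (1.18 times). Single contigs thus had wide intervals. A choice by many peaks in CT also favours low ratios, so the 7 contigs are no measure of the whole set. Another 6 contigs had 10 or more CTCF peaks in OE only and therefore lie above 1 by the way they were chosen, so their number says nothing about OE. They include chrUn_GL000214v1 with 5 peaks in CT and 16 in OE and chrUn_KI270442v1 with 7 and 17.

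**Figure D2:**
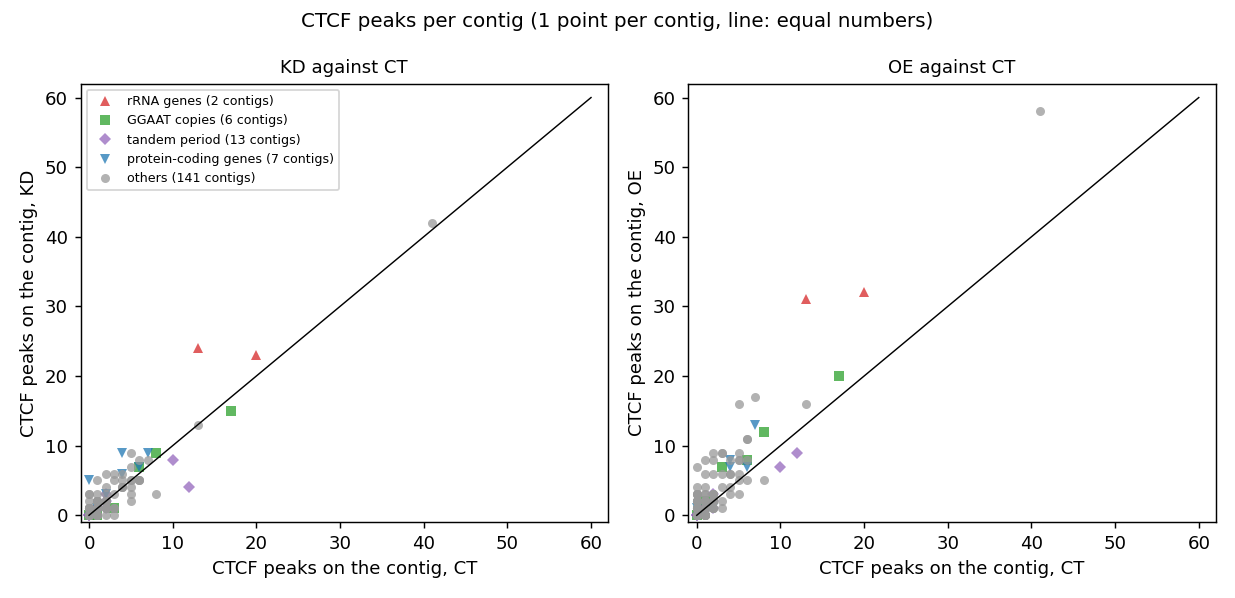
CTCF peaks on each of the 169 contigs in KD (left) and OE (right) against CT, with 1 point per contig, colour and shape for the class of contig and a line where both numbers are equal. The contig with the most peaks lies at 41 in CT against 42 in KD and 58 in OE.

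Contigs were put into classes by what their sequence holds. A pair of contigs carried genes for 18S and 28S ribosomal RNA (0.342 Mb), and 6 had at least 0.1 of their bases in GGAAT copies (0.944 Mb). Of the rest, 13 had a tandem period with a self-identity of at least 0.7 (0.241 Mb), 7 had protein-coding genes (3.07 Mb) and 141 were others. The others were further split, after the data had been seen, into 78 with a self-identity of at least 0.4 at a shift of 171 bp, the length of an alpha satellite monomer (1.25 Mb, called monomer contigs), and 63 without (5.62 Mb). CTCF density in CT was highest on tandem contigs at 137 peaks per Mb, followed by rRNA contigs at 96.6, monomer contigs at 66.5, GGAAT contigs at 37.1, the remaining others at 28.5 and protein-coding contigs at 7.82. Contigs with protein-coding genes thus stood below the 13.5 per Mb of the chromosomes, and all other classes above. In the same order of classes, input peaks stood at 37.4, 84.9, 40.1, 19.1, 17.6 and 2.93 per Mb, and at 0.785 on chromosomes.

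CTCF peaks were also compared between conditions within each class. On rRNA contigs CTCF peaks numbered 33 in CT, 47 in KD and 63 in OE, so KD stood at 1.42 times (0.893 to 2.29) and OE at 1.91 times (1.23 to 3.0) CT. On tandem contigs there were 33, 23 and 27, or 0.697 times (0.391 to 1.22) and 0.818 times (0.473 to 1.40). Monomer contigs had 83, 81 and 124 peaks, or 0.976 and 1.49 times CT, and the remaining others 160, 184 and 283, or 1.15 and 1.77 times. Contigs with protein-coding genes had 24, 40 and 37 peaks, or 1.67 times (0.980 to 2.89) and 1.54 times (0.898 to 2.69), and GGAAT contigs had 35, 32 and 49, or 0.914 and 1.40 times. Tandem contigs were the only class of these with fewer CTCF peaks in OE than in CT, and the difference between classes was not tested.

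**Figure D3:**
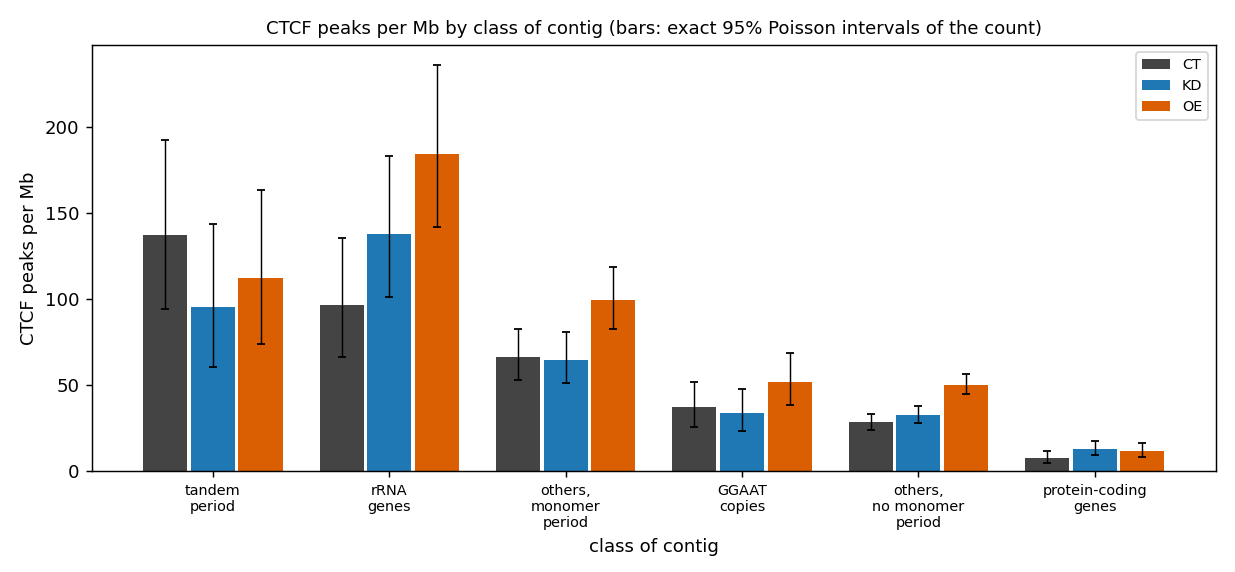
CTCF peaks per Mb by class of contig in CT (dark grey), KD (blue) and OE (orange), with exact 95% Poisson intervals of the counts. rRNA contigs stand at 96.6, 138 and 184 peaks per Mb and tandem contigs at 137, 95.5 and 112.

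The ribosomal RNA genes gave the most detailed picture. The 45S gene, which is transcribed into the precursor of 18S, 5.8S and 28S rRNA, aligned to each of the rRNA contigs at 2 places, with starts 43972 bp apart on chrUn_GL000220v1 and 45082 bp apart on chr22_KI270733v1_random. On chrUn_GL000220v1 it spanned positions 105424 to 118780, and the other copy ran from 149396 to the end of the contig at 161802. Peaks of every list lay over 18S. CTCF peaks covered 85.1% of 18S bases in CT, 88.4% in KD and 88.8% in OE, H3K4me3 peaks 84.7% and 86.6%, and input peaks 70.1%. H3K9me3 peaks covered 18.3% of 18S in CT and 54.8% in KD. Because the input covered most of 18S as well, a CTCF peak there is not set apart from unbound DNA by the lists.

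Outside 18S, CTCF peaks differed more between conditions. Over 28S the CTCF lists had 8, 14 and 15 peaks, which covered 13.0% of its bases in CT, 25.5% in KD and 33.4% in OE, and the input covered 14.8%. The spacer between the genes held 6 (CT), 13 (KD) and 29 (OE) CTCF peaks, covering 2.99%, 6.74% and 21.3% of its 58.3 kb. Input peaks covered 4.72% of the spacer. Of the 29 OE spacer peaks, 8 overlapped an input peak, 13 a KD peak and 5 a CT peak. Among all OE contig peaks these shares were 32.9%, 51.6% and 43.1%. In the whole OE list 62.1% overlapped a KD peak and 42.4% a CT peak. All 13 KD spacer peaks overlapped an OE peak, as did 73.2% of KD contig peaks and 61.5% of the whole KD list. H3K4me3 peaks of CT overlapped 13 of the 29 and H3K27me3 peaks of CT 16, whereas H3K9me3 peaks of CT overlapped 3. The 2 kb before each 45S start held 4 (CT), 7 (KD) and 5 (OE) CTCF peaks, over 21.1%, 32.0% and 26.2% of these bases. No CTCF peak was centred in 5.8S or in the transcribed spacers of 45S. The rest of these contigs, before the rRNA genes, had 10, 9 and 10 CTCF peaks on 223.7 kb, so the larger numbers of KD and OE arose mostly in 28S and the spacer.

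**Figure D4:**
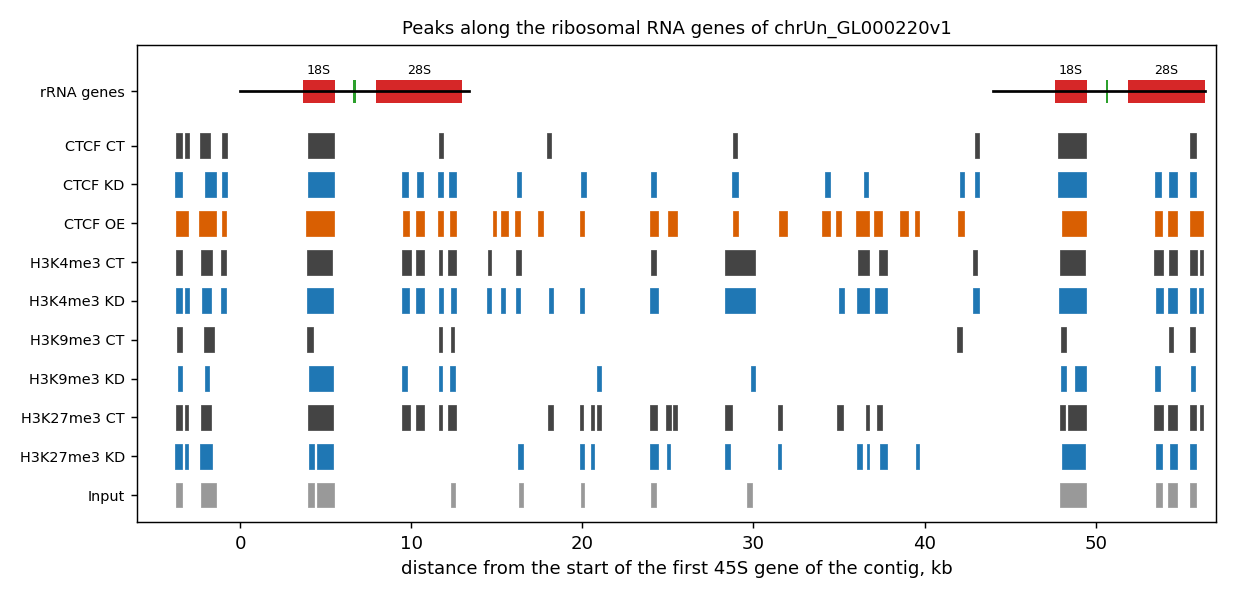
Peaks of each list on chrUn_GL000220v1 by distance in kb from the start of the first 45S gene of the contig, with the 45S gene as a black line, 18S and 28S as red boxes and 5.8S in green. Blocks over 18S appear in all 10 lists, and among the CTCF lists the spacer is filled most densely in OE.

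H3K4me3 and H3K27me3 peaks on rRNA contigs were dense in both conditions. H3K4me3 had 52 peaks in CT and 61 in KD there, and H3K27me3 had 55 and 48. H3K9me3 had 20 and 21, fewer than the 29 peaks of the input. In the spacer H3K4me3 peaks covered 13.6% in CT and 17.4% in KD, H3K27me3 peaks 12.9% and 11.4%, and H3K9me3 peaks 1.34% and 0.751%. Over 28S, H3K27me3 covered 34.2% in CT and 12.8% in KD. H3K9me3 was thus the mark least present in the spacer.

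Of the histone marks, H3K9me3 differed most between contigs and chromosomes when KD was set against CT in the full lists. On chromosomes KD had 0.567 times as many H3K9me3 peaks as CT (0.551 to 0.582), and on contigs 0.992 times (0.831 to 1.18). Covered bases stood at 0.606 times on chromosomes and 1.07 times on contigs. When peaks that overlap the input were left out, 110 H3K9me3 contig peaks remained in CT and 95 in KD, a ratio of 0.864 (0.649 to 1.15), and on chromosomes the same filter gave 0.502 (0.487 to 0.518). Covered bases then stood at 0.846 times CT on contigs and 0.518 times on chromosomes. H3K27me3 stood at 0.900 times on contigs (0.772 to 1.05) and 0.793 times on chromosomes (0.763 to 0.825), and H3K4me3 at 1.15 times (1.01 to 1.31) and 1.07 times (1.06 to 1.08). With equal numbers of widest peaks from both lists of a mark, the contig ratios were 1.02 for H3K4me3 (0.895 to 1.17), 1.05 for H3K27me3 (0.894 to 1.23) and 1.15 for H3K9me3 (0.960 to 1.39), so for each mark the interval includes 1. Equal numbers set the ratio of the whole lists to 1, and chromosomal ratios at equal numbers are not given. The gap between contigs and chromosomes is therefore described for the full lists only. In the full lists H3K9me3 peaks on contigs had nearly the same number in CT and KD where those on chromosomes were fewer in KD. By class, H3K9me3 had 30 and 30 peaks on GGAAT contigs, 26 and 28 on tandem contigs, 73 and 69 on monomer contigs and 13 and 7 on contigs with protein-coding genes. The last of these gives a ratio of 0.538 (0.182 to 1.45), the only class near the ratio of the chromosomes, and it rests on few peaks.

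Overlap of at least 1 bp was used to see which contig peaks were found again in another condition. Of the CT CTCF peaks on contigs, 127 of 368 had no overlapping KD peak, or 34.5%, where 49.8% of the whole CT list had none. For KD peaks without a CT peak the numbers were 170 of 407, or 41.8%, against 54.8% of the list. CT peaks without an OE peak numbered 113, or 30.7%, against 53.5%. KD peaks without an OE peak numbered 109, or 26.8%, against 38.5%. Over all peaks, CTCF contig peaks of CT and KD were found again more often than those of the whole lists, but between CT and KD this was not seen when peaks that overlap the input were left out. Of the 229 CT contig peaks that remained, 47.6% (41.0% to 54.3%) had a KD peak, next to 48.3% of the whole list treated alike, and of 242 KD contig peaks 45% (38.7% to 51.5%) had a CT peak, next to 43.6%. For OE the shares without the input were 51.5% (44.9% to 58.2%) of CT contig peaks next to 44.2%, and 56.6% (50.1% to 62.9%) of KD contig peaks next to 59.9%. For peaks of the OE list the contigs stood close to the list or above it, since 332 of 583 had no CT peak, or 56.9% against 57.6%, and 282 had no KD peak, or 48.4% against 37.9%. Without the input, 29.7% of OE contig peaks had a CT peak and 35.5% a KD peak, next to 40.6% and 60.9% of the whole list.

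Set against both other conditions at once, 88 CT contig peaks (23.9%) were in neither KD nor OE, where the whole list had 46.3%. In KD it was 84 (20.6%) against 32.1%, and in OE 245 (42.0%) against 34.7%. Peaks found in CT, KD and OE numbered 216 of the CT contig peaks, 58.7% against 43.0% of the whole list. In KD it was 52.1% against 38.8%, whereas in OE the contigs stood lower, with 36.7% against 39.2%. Contig peaks found in all conditions differed from those of a single condition in width and in input overlap. The 216 CT peaks had a median width of 339 bp, and 60.6% of them (53.8% to 67.2%) overlapped an input peak. The 88 CT peaks of 1 condition had a median width of 259.5 bp, and 1 of them overlapped an input peak, 1.14%. Of the 245 OE peaks of 1 condition, 23 (9.39%, 6.04% to 13.8%) overlapped an input peak, and of the 214 OE peaks found in all conditions 59.8%. Recurrence of CTCF peaks on the contigs went together with input peaks in each condition. This split is not given for the chromosomes, so it is not set apart from the lists as a whole. Whether unbound DNA accounts for the recurrence was not tested.

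**Figure D5:**
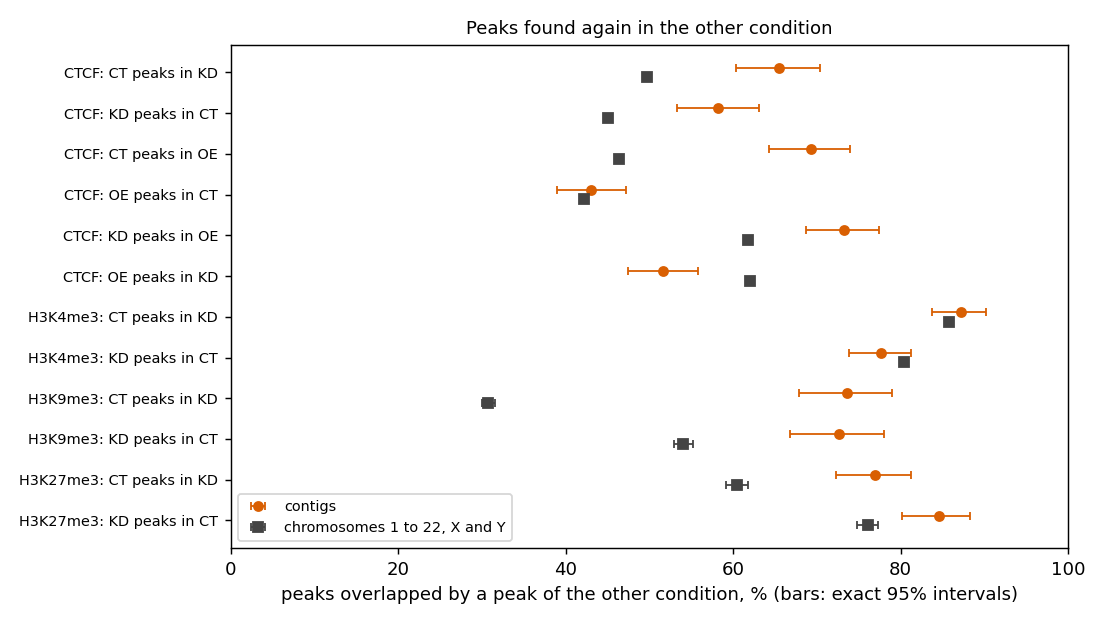
Percent of peaks overlapped by a peak of the other condition, for contigs (orange circles) and chromosomes (dark grey squares), with exact 95% intervals. H3K9me3 peaks of CT show the widest gap, with 73.6% on contigs and 30.7% on chromosomes found again in KD.

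Histone peaks on contigs recurred at high shares. H3K4me3 had 56 of 439 CT peaks without a KD peak, 12.8%, next to 14.1% of the whole list, and 113 of 506 KD peaks without a CT peak, 22.3% next to 19.3%. For H3K9me3 it was 68 of 258 CT peaks, 26.4%, against 68.5% of the list, and 70 of 256 KD peaks, 27.3% against 45.3%. For H3K27me3 it was 83 of 360 CT peaks, 23.1% against 38.3%, and 50 of 324 KD peaks, 15.4% against 23.1%. Over all peaks, H3K4me3 on contigs stood close to its whole list. As with CTCF, contig peaks found again overlapped the input more often, a split likewise not given for the chromosomes. Among CT peaks the share was 71.6% of the 190 H3K9me3 peaks found again and 17.6% of the 68 not found, and for H3K27me3 64.6% of 277 and 19.3% of 83. Among KD peaks it was 71.5% of 186 and 40% of 70 (28.5% to 52.4%) for H3K9me3, a smaller gap than in CT, and 65.0% of 274 and 12% of 50 for H3K27me3. Without peaks that overlap the input, a KD peak was found for 49.1% (39.4% to 58.8%) of H3K9me3 CT contig peaks, next to 22% of the whole list treated alike, and for 59.4% (51.5% to 67.0%) of H3K27me3 ones, next to 45.8%. For H3K4me3 it was 80.2% (74.8% to 84.9%) next to 85.7%. In the direction from KD to CT, H3K4me3 contig peaks stood below the whole list, with 66.7% (61.2% to 71.8%) next to 80.3%. There H3K9me3 had 55.8% (45.2% to 66.0%) next to 43.5%, a smaller gap than from CT to KD, and H3K27me3 68.6% (60.2% to 76.1%) next to 62.9%, which lies inside the interval.

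CTCF sites were sought with a matrix of 14 positions on both strands. A site at p below 0.0001 was found in 108 CT contig peaks (29.3%, 24.7% to 34.3%), 137 KD peaks (33.7%, 29.1% to 38.5%) and 145 OE peaks (24.9%, 21.4% to 28.6%). On chromosomes the shares were 47.0%, 67.3% and 57.9%. Contig peaks held sites less often than chromosomal peaks in every condition, and contigs as a whole also hold fewer sites, 513 per Mb against 584 per Mb on chromosomes. Within contig peaks there were 1060 sites per Mb in CT, 1104 in KD and 824 in OE, which is 2.07, 2.15 and 1.61 times the density over all contig bases. Peaks found in CT, KD and OE had a site in 38.9% of cases in CT, 38.2% in KD and 40.7% in OE, and peaks of 1 condition in 11.4%, 27.4% and 12.2%. The matrix was learned from repeat-masked CT peaks found in KD and OE as well, so it is not independent of this split and nothing is read from the difference. Of all repeat-masked CT peaks 0.619% lay on contigs, so the matrix is not independent of the comparison with chromosomes either. A match shows letters that fit the matrix and not that CTCF was bound.

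The share with a site varied with the class of contig. Contigs with protein-coding genes had it in 13 of 24 CT peaks, 27 of 40 KD peaks and 17 of 37 OE peaks, or 54.2%, 67.5% and 45.9%. On rRNA contigs it was 20 of 33, 21 of 47 and 30 of 63. On tandem contigs 1 CT peak of 33, 1 KD peak of 23 and 1 OE peak of 27 had a site, although these contigs had the most CTCF peaks per Mb in CT. On GGAAT contigs it was 5 of 35, 4 of 32 and 7 of 49, and on monomer contigs 14 of 83, 17 of 81 and 17 of 124. The chr14 contig at the top of all lists held 355 matrix sites, 1681 per Mb, and 18 of its 41 CT peaks had one.

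Much of the DNA under contig peaks was repeated. A peak was counted as repeated when at least 50% of its 24-mers occur 10 or more times in hg38. In CT, KD and OE this held for 63.3%, 54.3% and 49.9% of CTCF contig peaks, against 27.6%, 17.3% and 19.9% on chromosomes. All 80-mers were unique in hg38 in 9.78% of the contig peaks of CT, 9.34% in KD and 12% in OE, against 68.6%, 77.2% and 74.9% on chromosomes. Most CTCF contig peaks thus held at least some stretch of 80 bases that occurs at more than 1 position. Repeated DNA took a larger share of CTCF contig peaks in CT than in OE. H3K4me3 peaks were also repeated more often on contigs, 49.9% against 8.62% in CT and 45.8% against 8.49% in KD. For H3K27me3 and the input the order was the reverse, with 63.3% against 85.3% for H3K27me3 in CT, 63.6% against 94.1% in KD and 60.3% against 90.7% for the input. H3K9me3 had 75.6% on contigs and 61.4% on chromosomes in CT, and 73.0% and 81.4% in KD.

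GGAAT copies were more common in CTCF peaks of contigs than in those of chromosomes. GGAAT in at least 2 copies in a row on either strand was in 35 CTCF contig peaks of CT (9.51%), 25 of KD (6.14%) and 41 of OE (7.03%), against 0.428%, 0.371% and 0.604% on chromosomes. The CENP-B box on either strand was in 51 of CT (13.9%, 10.5% to 17.8%), 34 of KD (8.35%, 5.85% to 11.5%) and 41 of OE (7.03%, 5.09% to 9.42%), against 5.37%, 5.29% and 6.01%. The CENP-B box thus had its highest share in CT, and in OE the interval on contigs includes the chromosomal share. CGGCGGCGG, a run of the triplet in the name of CGGBP1, was in 1 CTCF contig peak in each of CT, KD and OE, 0.272%, 0.246% and 0.172%, next to 0.172%, 0.215% and 0.128% on chromosomes.

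The peaks of all lists on contigs joined into 1045 regions. Of these, 104 had a peak in every list and 444 in 1 list. An input peak was in 202 regions, and 146 of those had peaks of all 4 targets as well. CTCF alone, with no histone or input peak, made up 349 regions, of which 161 were from OE only, 72 from CT only, 59 from KD only and 19 from CT, KD and OE. Counted by peaks, those in neither other condition made up 42.0% of OE, 23.9% of CT and 20.6% of KD contig peaks. In the whole lists it was 34.7%, 46.3% and 32.1%. Of the OE-only regions, 54.7% lay on the remaining others, 23.6% on monomer contigs, 5.59% on rRNA contigs and 1.24% on tandem contigs. These classes held 48.5%, 21.3%, 11% and 4.63% of all OE contig peaks. The former leave out regions with a histone or input peak and the latter do not, so these shares are not of like sets. H3K4me3 alone made up 176 regions, H3K9me3 alone 38 and H3K27me3 alone 26. All 4 targets without the input shared 50 regions. On the contigs, regions of a single list outnumbered regions of every list. Such regions are not given for the chromosomes, so this is not set apart from the lists as a whole.

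CTCF and H3K4me3 peaks overlapped the repressive marks more often on contigs than on chromosomes. Of CTCF contig peaks in CT, 55.7% overlapped an H3K4me3 peak, 45.4% an H3K9me3 peak and 53.0% an H3K27me3 peak of the same condition, against 26.4%, 10.3% and 7.49% on chromosomes. In KD the shares were 61.2%, 43.7% and 51.1%, against 33.1%, 8.18% and 7.08%. Of H3K4me3 contig peaks in CT, 57.2% (52.4% to 61.9%) overlapped an H3K27me3 peak and 38.0% (33.5% to 42.8%) an H3K9me3 peak, against 5.10% and 4.58% on chromosomes. For H3K27me3 peaks contigs and chromosomes were closer. Of H3K27me3 contig peaks in CT 74.7% (69.9% to 79.1%) overlapped an H3K4me3 peak and 52.2% (46.9% to 57.5%) an H3K9me3 peak, and on chromosomes 68.7% and 58.1%. The gaps were wider in KD, with 80.9% (76.2% to 85.0%) next to 67.8% and 59.9% (54.3% to 65.3%) next to 70.2%. H3K9me3 peaks differed more, since 70.5% on contigs overlapped an H3K4me3 peak and 76.0% an H3K27me3 peak in CT, against 24.3% and 23% on chromosomes, and in KD 77.3% and 78.9% against 40.7% and 39.0%. Input peaks also lay on 37.8% of CTCF and 41.2% of H3K4me3 contig peaks in CT, against 4.05% and 2.69% on chromosomes. The shares of overlap between targets are not given without such peaks. Whether the marks share a nucleosome cannot be told from lists of bulk cells. The part that unbound DNA or near-identical copies have in these shares was not tested.

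Protein-coding genes were placed on the contigs by alignment. Transcripts of GENCODE release 44 aligned at 13 places on 7 contigs, since the annotation used here gives no genes by contig name. H3K4me3 peaks lay within 1 kb of a start in CT and KD for MRPL23, a protein of the mitochondrial ribosome, on chr11_KI270721v1_random, with a width of 1174 bp in CT and 1207 bp in KD. The same held for TP53TG3F (252 bp and 358 bp) and TP53TG3C (1518 bp and 1679 bp) on chr16_KI270728v1_random, IGSF3 on chr22_KI270731v1_random (380 bp and 408 bp), and DGCR6 (533 bp and 578 bp) and PRODH, a mitochondrial enzyme that breaks down proline (600 bp and 973 bp), on chr22_KI270734v1_random. ZNF595, a zinc finger gene, had peaks of 194 bp and 205 bp on chrUn_KI270744v1. IGSF3 was also placed on chr22_KI270734v1_random, where its start had a peak of 262 bp in KD only. On both contigs its place rests on a transcript of 268 bp, at identities of 98.5% and 98.9%. Whether more of the gene lies there is not shown. The starts of POTEB2, OR4M2, OR4N4, GGTLC3 and POTED had no H3K4me3 peak within 1 kb. chr11_KI270721v1_random shared 90.8% of its 80-mers with chromosomes, chr22_KI270731v1_random 87.3%, chr22_KI270734v1_random 85.1%, chr16_KI270728v1_random 72.4% and chrUn_KI270744v1 34.9%. Whether these H3K4me3 peaks belong to the contigs or to like sequence elsewhere was not tested.

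The bases before the start of TP53TG3C are shown because its start had the widest H3K4me3 peak in CT among starts that lay inside a peak in CT and KD. Capitals mark the GC box GGGCGG, sought on both strands and here on the other strand.
chr16_KI270728v1_random:936505-936754 (minus strand, before TP53TG3C): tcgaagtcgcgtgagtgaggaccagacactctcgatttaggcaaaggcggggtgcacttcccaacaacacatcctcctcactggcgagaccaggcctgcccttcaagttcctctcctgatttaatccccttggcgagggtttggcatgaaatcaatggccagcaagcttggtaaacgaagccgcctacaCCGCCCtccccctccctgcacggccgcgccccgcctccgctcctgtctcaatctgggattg
Of these 250 bases 59.2% were G or C, and they held 1 GC box. A GC box was in 67 H3K4me3 contig peaks of CT (15.3%, 12% to 19.0%) and in 74 of KD (14.6%, 11.7% to 18%), against 31% and 30.7% of chromosomal peaks. The peak at this start had 90.1% of its 80-mers in more than 1 place of hg38 in CT, where it spanned chr16_KI270728v1_random:935059-936576.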

How the data were processed

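Sequencing was done by the authors on 10 libraries. Per the labels and the study's methods, the authors mapped reads with Bowtie2 to hg38, unmasked or repeat-masked, and called peaks per library with MACS2 (versions not given). The methods give default mapping settings and no filter on unique placement, whereas the study's text elsewhere speaks of keeping the best alignment and of keeping uniquely placed reads. Which of these made the lists is not settled here, and the effect on near-identical copies was not tested. Whether the input was the control of the peak caller is not stated. The lists deposited by the authors hold genome positions in bp, with no score or other unit. The 6 lists of exclusive peaks were not used. The labels and the methods name the H3K9me3 and H3K27me3 antibodies oppositely, so each list was taken as the mark its title names, and results on either mark rest on the titles. The p thresholds in the methods equal those of the labels for the repeat-masked lists and the unmasked OE list and differ for the other unmasked lists.

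The members and lists were chosen with earlier results of these data known. The lists include alternate loci, so these were part of the mapped reference, and the copy number of the contigs in HEK-293T may differ from hg38. Starts were read as counted from 0 and ends were trimmed to the contig end, which shortened 7 peaks by at most 26 bp.

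Peaks were counted per Mb of contig length, covered bases were those of joined peaks, and a peak was found again when a peak of the other list overlapped it by at least 1 bp. Shares have exact Clopper-Pearson intervals and ratios of counts have intervals from the exact binomial one (scipy 1.17.1). Ratios of covered bases have no interval of their own, so alternatives were judged by the relative interval of the peak ratio. K-mers of 24 and 80 bases were counted on both strands of hg38 (numba 0.67.0). A k-mer of 24 bases with at least 10 occurrences counted as repeated. The CTCF matrix was learned from 12859 repeat-masked CT peaks that overlap KD and OE peaks, starting from a consensus of 12 positions. Ribosomal RNA genes and protein-coding transcripts of GENCODE 44 were aligned to the contigs with minimap2 2.31, and transcripts needed 0.95 of their length at an identity of 0.95. Tandem periods were sought up to 10000 bp. The computations were checked on simulated data.

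Contigs were named when they were among the 5 with the most peaks in a list, held ribosomal RNA genes, or were among the 3 highest or lowest ratios to CT of contigs with at least 10 CTCF peaks. Peaks were named as the widest found in CT, KD and OE and in 1 condition only, and genes by a start within 1 kb of an H3K4me3 peak. Some peaks named by this rule are not reported here. Alternatives changed the contigs, the peaks, the list sizes, the overlap and the motif search.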

Additional observations from a re-analysis of the deposited data

Results flagged for a closer look

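The repeat-masked CTCF lists, which the comparisons did not use, also held peaks on the contigs. No input list of repeat-masked reads was used here. There were 165 in CT, 157 in KD and 225 in OE, or 14.4, 13.7 and 19.6 per Mb. KD had 0.952 times as many as CT (95% interval 0.760 to 1.19) and OE 1.36 times as many (1.11 to 1.68). The whole masked lists held 26635, 24418 and 21071 peaks, so KD stood at 0.917 and OE at 0.791 times CT there, and the contigs made up 0.619%, 0.643% and 1.07% of them. In CT 39.4% of these peaks overlapped an unmasked peak of the same condition, in KD 58.6% and in OE 46.7%, where 56.4%, 93.0% and 89.1% of the whole masked lists did so. The labels give the same p threshold of 0.001 for these 3 lists. The differences were not tested.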

How the results depend on the processing

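No paired analysis was possible because each group had 1 library. Of 64 values of ratios of peaks or covered bases under alternatives, 63 lay inside the interval of the reported ratio. Among them, known bases in place of the full contig length could not change a ratio by construction and says nothing about stability. The ratio of CTCF peaks in OE over CT ranged from 1.46 to 1.71 over its alternatives and that of KD over CT from 1 to 1.15, with 2 alternatives for each (without contigs under 5 kb and without rRNA contigs) chosen after seeing the data. The exception was H3K9me3 covered bases in KD over CT, which were 0.846 without peaks that overlap the input. Overlap by at least 0.5 of both peaks, which is stricter by construction, gave 58.7% of CT CTCF contig peaks in KD, 57.6% in OE, and 80.9% for H3K4me3, 64.7% for H3K9me3 and 70.8% for H3K27me3 in KD. Without peaks that overlap the input these shares were 47.6%, 51.5%, 80.2%, 49.1% and 59.4%, next to 48.3%, 44.2%, 85.7%, 22% and 45.8% of the whole lists treated alike. All of these contig shares were lower than reported, and the cause was not tested for those without the input. In the order CT, KD and OE, the share of CTCF contig peaks with a site came to 12.5%, 16.5% and 8.23% at p below 0.00001, 22.6%, 27% and 16% within 200 bp around the peak centre, and 8.42%, 11.8% and 6.0% for the consensus with at most 1 mismatch. KD had the highest and OE the lowest share in each of these, as with the reported setting. Limits are the single library per group, the unknown depth behind each peak, the p thresholds of the CTCF lists, which differ by the labels and not by the methods, near-identical copies that short reads may not tell apart, and contig copy number in HEK-293T, which was not measured.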

Other observations

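Peaks on a contig can cover much of it. On the 79 contigs under 5 kb, CTCF peaks covered 20.7% of bases in CT, 23.1% in KD and 28.6% in OE, and input peaks 19.1%. Of the 55 contigs with a peak in every list, 27 were under 5 kb. H3K9me3 had the largest part of its contig peaks on these small contigs, 22.9% in CT and 20.3% in KD, next to 14.1% and 13.3% of CTCF peaks and 17.3% of input peaks. A copy of the 5.8S gene with 90.4% identity lay on chrUn_KI270442v1.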
